A study of Mus musculus with 33 samples.

Results

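Kupffer cells (KCs), the resident macrophages (macs) of the liver, were compared with alveolar macrophages (AMs), the resident macs of the lung airspaces, by bulk RNA-seq. The samples were chosen by their source labels and were 6 of KCs and 5 of AMs, 11 of the 33 samples of the series. The source labels name all 11 WT, and their titles mark them as without Cre (CRE-). In the study, littermate controls without Cre carried the floxed *Zeb2* allele on both chromosomes. Both groups were therefore taken as such controls, the KCs for the *Clec4f-cre* cross and the AMs for the *Itgax-cre* cross. By the methods of the study the mice were littermate controls of 6 to 8 weeks of age on a C57Bl/6 background, a mix of males and females was used, and each sample was RNA from 25000 sorted cells. Nothing states that the samples of a group came from separate mice, so the p-values measure the spread between these samples, which may be technical. Livers were digested with Collagenase A and lungs with Liberase TM, and that difference cannot be told apart from the difference between the cells.

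Macs of adult tissues share a core of genes for engulfing and digesting material and for sensing microbes, and add to it a program that fits the tissue they live in. KCs sit in the liver sinusoids, in contact with blood from the gut, and are known for clearing microbes, aged red cells, complement-coated particles and lipoproteins from it. AMs live in the airspaces, depend on GM-CSF and the nuclear receptor PPARγ, and are known for taking up and breaking down lung surfactant, a film rich in lipid.

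Between 19042305 and 22933576 reads per KC sample and between 19427005 and 21726715 reads per AM sample were counted on genes. Levels are CPM, the reads of a gene per 1000000 counted reads, with library sizes scaled by the TMM method, means are given with their SD over 6 KC and 5 AM samples, and log2 fold changes are of KCs over AMs, so that a negative value is a higher level in AMs. KC replicates 5 and 6 had no count on *Xist*, transcribed from the inactive X chromosome of females, and 2706 and 3663 counts on Y-linked genes, whereas the other 9 samples had 364 to 530 counts on *Xist* and at most 1 on Y-linked genes. By these counts KC replicates 5 and 6 looked male and the other 9 samples, all AM samples among them, female. The KC samples thus came from more than 1 mouse, and sex was not balanced between the groups. Of 12145 genes tested, 2543 were higher in KCs and 1502 higher in AMs by the quasi-likelihood test of edgeR (adjusted p under 0.05 by the Benjamini-Hochberg method and a fold change above 2), which is 20.9% and 12.4% of the genes tested and 33.3% in either direction. The groups did not overlap for 48.6% of the genes tested, that is for 3656 of the genes called and for 2247 of those not called. Many of the differences were large, with 1095 genes at a log2 fold change above 4 towards KCs and 411 towards AMs. The 2543 genes higher in KCs took 33.3 to 35.2% of the counts in KC samples and 5.27 to 5.33% in AM samples. The 1502 genes higher in AMs took 30.8 to 32.4% of the counts in AM samples and 6.52 to 6.85% in KC samples. On the other side, 2607 of the 7054 genes with at least 10 CPM in both groups lay within 1.2-fold of each other.

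The labelled cell types were first set against markers of each. These lists were chosen with earlier results of these data known and hold genes of proteins used in the sort, among them *Clec4f*, *Siglecf* and *Itgax*. They therefore describe the samples and are no independent check of the labels. All 14 KC markers tested were higher in KCs, with summed levels of 44314 to 47728 CPM in KCs and 36.5 to 51.7 CPM in AMs. All 14 AM markers were higher in AMs, where they summed to 29263 to 40298 CPM, against 112 to 148 CPM in KCs. Of 12 genes common to macs, 6 were not called, among them *Spi1*, the gene of the master regulator PU.1 (682 ± 74.7 CPM in KCs and 752 ± 29.1 CPM in AMs), *Cd68* (1225 ± 73.7 CPM and 1132 ± 102 CPM) and *Mertk* (463 ± 58.1 CPM and 289 ± 28.9 CPM). *Csf1r*, the receptor for the mac growth factor CSF1, was at 7847 to 9925 CPM (median 9205) in KCs and at 542, 473, 545, 569 and 623 CPM in AMs (log2 fold change 4.04 ± 0.09 (SE), edgeR adjusted p = 1.14e-13). *Adgre1*, which encodes F4/80, was at 2527 to 3930.2 CPM (median 2924) in KCs and at 388, 417, 413, 434 and 421 CPM in AMs (log2 fold change 2.88 ± 0.10 (SE), edgeR adjusted p = 7.12e-12). The groups did not overlap in either gene. *Lyz2*, the mac lysozyme, went the other way, at 29160.2, 29665, 27417, 27268 and 32732 CPM in AMs and 4244 to 7511 CPM (median 5916) in KCs (log2 fold change -2.34 ± 0.13 (SE), edgeR adjusted p = 1.08e-09).

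Markers of other cells were also present, mostly in KC samples. The 15 liver endothelial markers were all higher in KC samples, in which they summed to 929 to 3282 CPM, against 2.81 to 6.46 CPM in AM samples, and the 9 general endothelial markers were all higher there too (189 to 585 CPM against 5.71 to 8.73 CPM). Of 18 hepatocyte markers, 17 were higher in KC samples, led by *Alb*, the gene of albumin, at 76.9 to 196 CPM in KCs. The exception, *Trf*, the transferrin gene, was at 2451 ± 379 CPM in KCs and 3339.8 ± 245 CPM in AMs, and without it the hepatocyte markers summed to 256 to 708 CPM in KC samples and 2.70 to 4.26 CPM in AM samples. The liver endothelial sum was lowest in KC replicate 6 and highest in KC replicate 3. Without KC replicates 1, 2 and 3, which had the highest liver endothelial sums, 2423 genes were higher in KCs and 1627 in AMs. In the AM samples, 6 of 8 lung epithelial markers were higher. The whole lung epithelial list summed to 170 to 215 CPM in AM samples and 61.6 to 74.8 CPM in KC samples. *Sftpc*, a surfactant protein gene of type II cells, was at 11.8 to 19.7 CPM in AMs. Monocyte markers summed to 86.2 to 319 CPM in KCs and 6.13 to 12.6 CPM in AMs, mainly through *Plac8*, and B cell markers to 52.6 to 101 CPM and 8.42 to 13.5 CPM. Of 9 T and NK cell markers, 7 were not called, the exceptions being *Cd2*, an adhesion receptor of T cells, at 290.1 to 329 CPM in AMs and 0.235 to 2.105 CPM in KCs, and *Cd4*, at 14.6 to 32.8 CPM in KCs and 0 to 0.193 CPM in AMs, while *Cd3e* stayed at or below 2.03 CPM in each sample. Of 9 stellate cell and fibroblast markers 5 were higher in KC samples, led by *Lrat*, which esterifies retinol (4.88 to 10.8 CPM), and 1 in AMs, and of 6 dendritic cell markers 5 were higher in KC samples (summed level 17.0 to 27.1 CPM). Of 4 neutrophil markers 3 were higher in AMs, with *S100a8* at 2.86 to 6.18 CPM, and of 4 erythroid and platelet markers 1, *Pf4*, was higher in KCs (28.3 to 68.7 CPM). Of the eosinophil markers *Ccr3* alone was tested. Genes named below that stand on such a list are pointed out, and the part of these cells in each result was not tested. In bulk RNA, more cells of a type cannot be told apart from more RNA per cell.

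**Figure D1:**
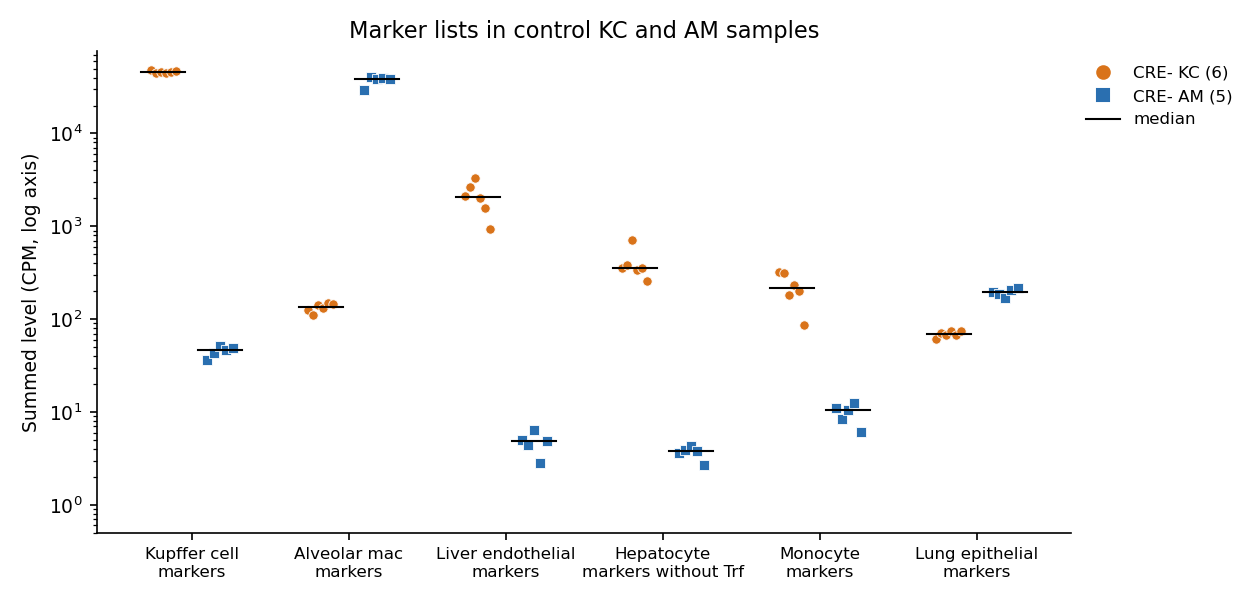
Summed level (CPM, log axis) of 6 marker lists (hepatocyte markers without Trf) in each of the 6 CRE- KC samples (orange circles) and 5 CRE- AM samples (blue squares), with the median of each group as a bar. KC and AM markers do not overlap between the groups, liver endothelial and hepatocyte markers are spread over the KC samples, and lung epithelial markers are higher in AMs.

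Over broad groups of lists, the share of genes called was set against the 20.9% and 12.4% over all genes tested. Counts within single lists below are to be read against the same shares, and a list near them does not stand out from all genes. Of 258 genes of transcription factors, 72 (27.9%) were higher in KCs and 48 (18.6%) in AMs. Of 566 genes of metabolism, 116 (20.5%) were higher in KCs and 120 (21.2%) in AMs. Of 278 receptor genes 114 (41.01%) were higher in KCs and 64 (23.02%) in AMs, and of 154 genes of immune effectors and antigen presentation 100 (64.9%) and 23 (14.9%). Genes of secreted cytokines and chemokines and their receptors were higher in KCs in 59 of 128 cases (46.1%) and higher in AMs in 39 (30.5%).

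The largest differences on the log2 scale among genes with at least 50 CPM were led in KCs by *Itga9*, *Timd4*, *Paqr9*, *Tmem26* and *Clec4f*, and in AMs by *Chil3*, *Car4*, *Krt79*, *Plet1* and *Slc39a2*. *Paqr9*, of the adiponectin receptor family, was at 239 to 318 CPM (median 274) in KCs and had no count in any AM sample (at least 1874-fold higher against a limit of 3 counts per sample). *Tmem26*, a membrane protein gene, was at 224 to 262 CPM (median 238) in KCs and likewise had no count in AMs (at least 1654-fold higher). *Slc39a2*, a zinc importer gene, was at 146, 176, 144, 139.7 and 164 CPM in AMs and had no count in KCs (at least 1051-fold higher). Fitted fold changes of these and other genes with few or no counts in 1 group depend on the prior count and are no bound. The SE printed for such genes leave out most of the counting error of that group. They therefore do not show how precisely the size of the difference is known. There were 309 genes higher in KCs without a count in any AM sample, 65 of them with at least 10 CPM, and 82 genes higher in AMs without a count in any KC sample, 26 of them with at least 10 CPM.

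The most abundant transcripts were also examined, per kilobase of exon so that genes can be set side by side. In KCs, after the ferritin chain *Ftl1* (11040.5 CPM per kb) and *Tmsb4x*, which encodes the actin-binding thymosin β4 (7826 CPM per kb), the highest were *C1qb* (5843 CPM per kb), *Apoe* (5400.3 CPM per kb), *C1qa* (4749.5 CPM per kb) and *Clec4f* (4549 CPM per kb). In AMs, *Lyz2* (22225 CPM per kb) and *Chil3* (15140.5 CPM per kb) stood above *Ftl1* (12222 CPM per kb), *Tmsb4x* (6539 CPM per kb) and *Ctsd*, the protease cathepsin D (5774 CPM per kb). *Ftl1* and *Tmsb4x* were not called (-0.15 and 0.26).

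**Figure D2:**
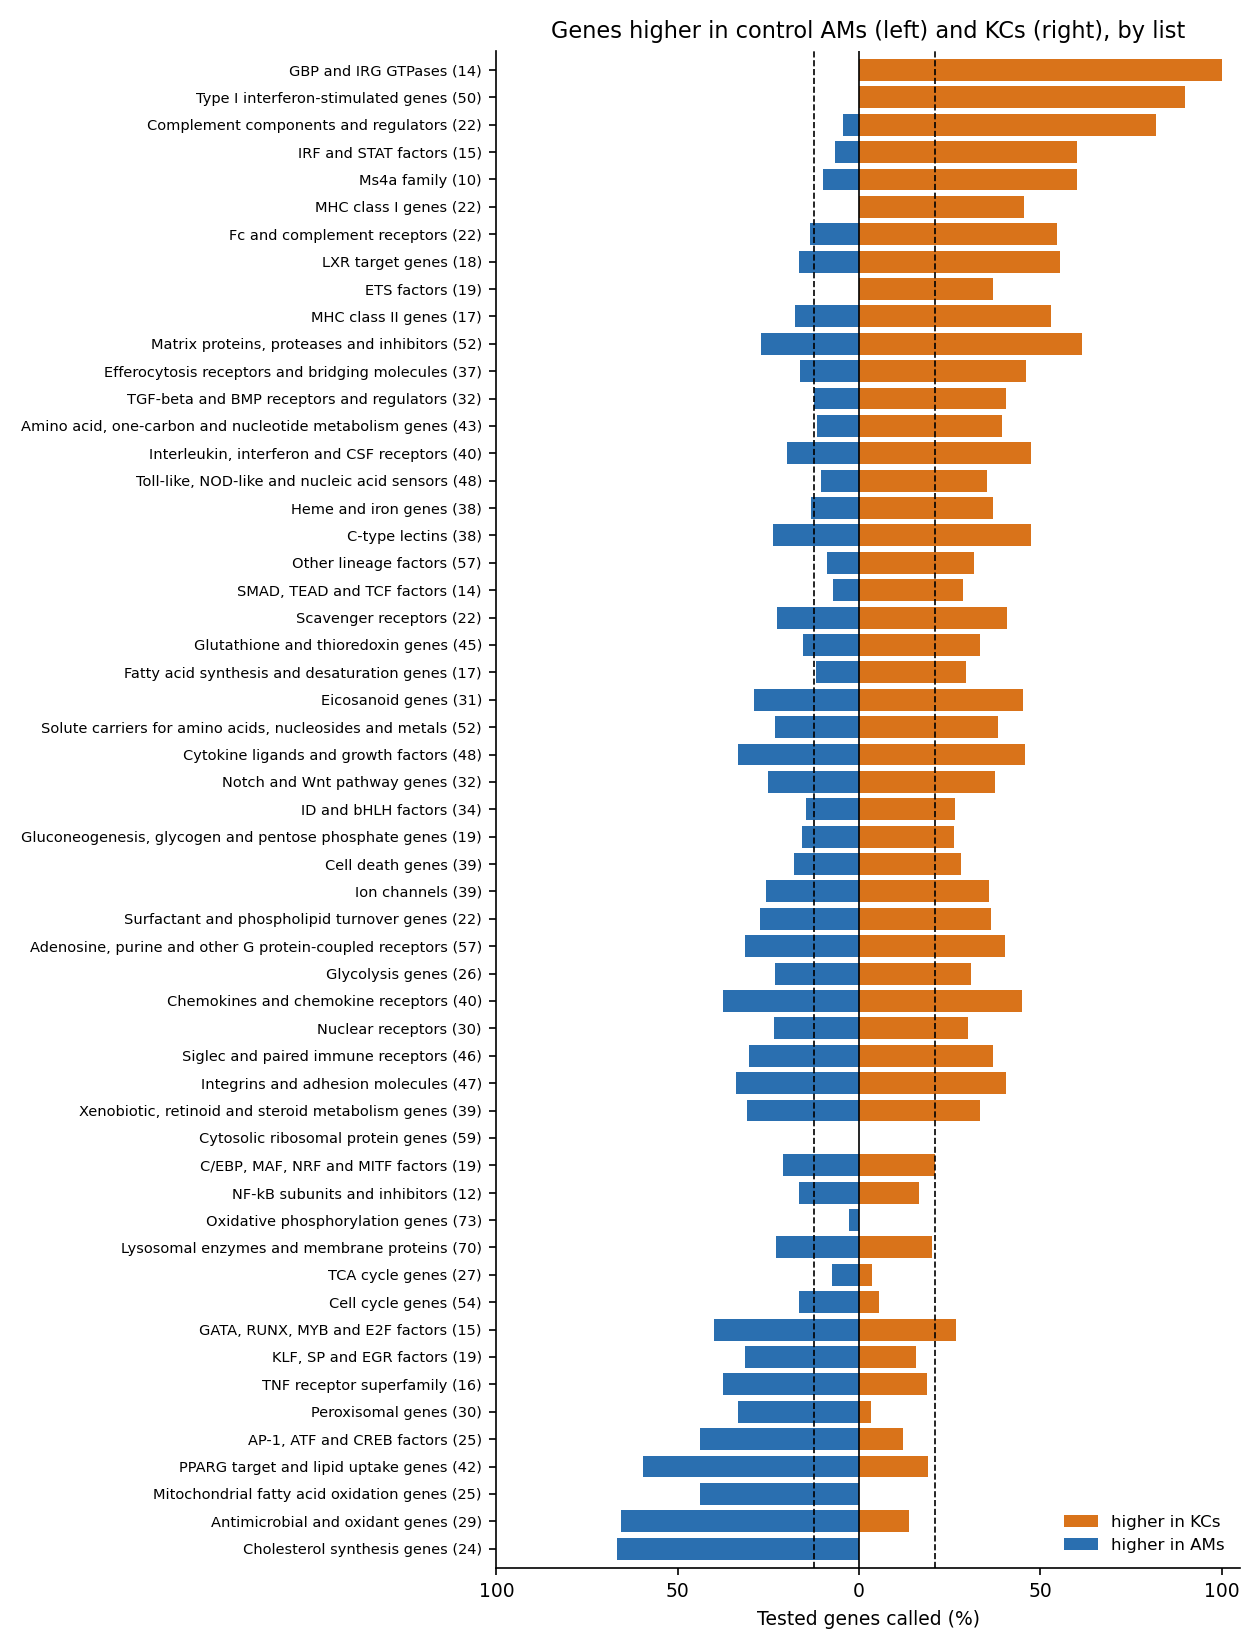
Number of tested genes higher in CRE- KCs (orange, to the right) and higher in CRE- AMs (blue, to the left) as a percentage of the tested genes of each list, with the number tested in brackets. The dashed lines give the percentages over all genes tested, 20.9% and 12.4%; interferon-stimulated, GBP and IRG and complement genes reach far to the right, and cholesterol synthesis, PPARγ and antimicrobial genes to the left.

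Transcription factors were examined first, since they are held to set the identity of tissue macs. *Maf*, which encodes c-MAF, a large MAF factor that restrains self-renewal in macs, was at 89.2 to 115 CPM (median 106) in KCs and at 0, 0, 0, 0.193 and 0.104 CPM in AMs (log2 fold change 10.67 ± 0.29 (SE), edgeR adjusted p = 4.23e-13). In AMs, *Maf* lay near the limit of 3 counts per sample, 0.145 CPM. The small MAF gene *Maff* was the reverse, at 43.2, 35.5, 43.4, 44.9 and 49.97 CPM in AMs and 0.516 to 1.91 CPM in KCs, and *Mafk* and *Mafg* were not called. Among the C/EBP factors, which drive myeloid gene expression, *Cebpb* was at 2982, 3480.0, 3497, 3768 and 3209.5 CPM in AMs and 633 to 791 CPM (median 693) in KCs (log2 fold change -2.27 ± 0.07 (SE), edgeR adjusted p = 2.93e-12), whereas *Cebpa* (-0.69) and *Cebpd* (0.42) were not called.

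Of 19 ETS factors, 7 were higher in KCs and none in AMs. *Spic*, the factor required for red pulp macs of the spleen and regulated by heme, was at 69.2 to 138 CPM (median 94.6) in KCs and 0, 0.696, 0.187, 0.484 and 0 CPM in AMs (log2 fold change 8.47 ± 0.41 (SE), edgeR adjusted p = 2.04e-10). *Etv5* was at 196 to 233 CPM (median 205) in KCs and 5.29, 4.62, 5.90, 5.13 and 4.41 CPM in AMs, and *Etv1* at 19.8 to 31.3 CPM and 0 to 0.364 CPM. *Ets1* was likewise higher in KCs (log2 fold change 4.95 ± 0.32 (SE), edgeR adjusted p = 4.87e-09); it is also abundant in lymphocytes and endothelium, and the B cell and endothelial lists were higher in these samples. *Spi1* itself and the general factors *Elf1*, *Elf2*, *Elf4* and *Gabpa* were not called (-0.14, 0.20, 0.40, 0.43 and -0.01).

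Inducible factors showed the reverse picture. Of 25 AP-1, ATF and CREB factors, 11 were higher in AMs and 3 in KCs, and of 19 KLF, SP and EGR factors 6 were higher in AMs and 3 in KCs. *Fos* was at 1291, 1141, 1428, 1372 and 1457 CPM in AMs and 29.0 to 51.7 CPM (median 42.8) in KCs (log2 fold change -4.99 ± 0.14 (SE), edgeR adjusted p = 6.68e-13). *Egr2* was at 840.0, 929, 904, 1063 and 884 CPM in AMs and 3.55 to 8.15 CPM (median 4.81) in KCs (log2 fold change -7.49 ± 0.17 (SE), edgeR adjusted p = 9.29e-14). No KC sample reached an AM sample for either gene. *Fosb* (-7.50), *Junb* (-2.90), *Egr1* (-4.65) and *Atf3* (-2.85) differed in the same direction, as did all 3 members of the NR4A family, *Nr4a1* (-5.72), *Nr4a2* (-6.22) and *Nr4a3* (-7.96). These are immediate early genes, which many cells switch on within minutes of a stimulus, and are known to respond to tissue digestion, which differed between liver and lung and cannot be told apart from the cells here. *Jun* (-0.79) was not called. The 3 AP-1 genes higher in KCs were *Batf2* (3.76), *Batf3* (2.78) and *Jdp2* (2.45), of which *Batf2* is known as an interferon-induced gene. *Klf4*, at 88.3 to 116 CPM, was higher in AMs and *Klf2*, at 299.9 to 471 CPM, in KCs (-4.32 and 1.78).

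**Figure D3:**
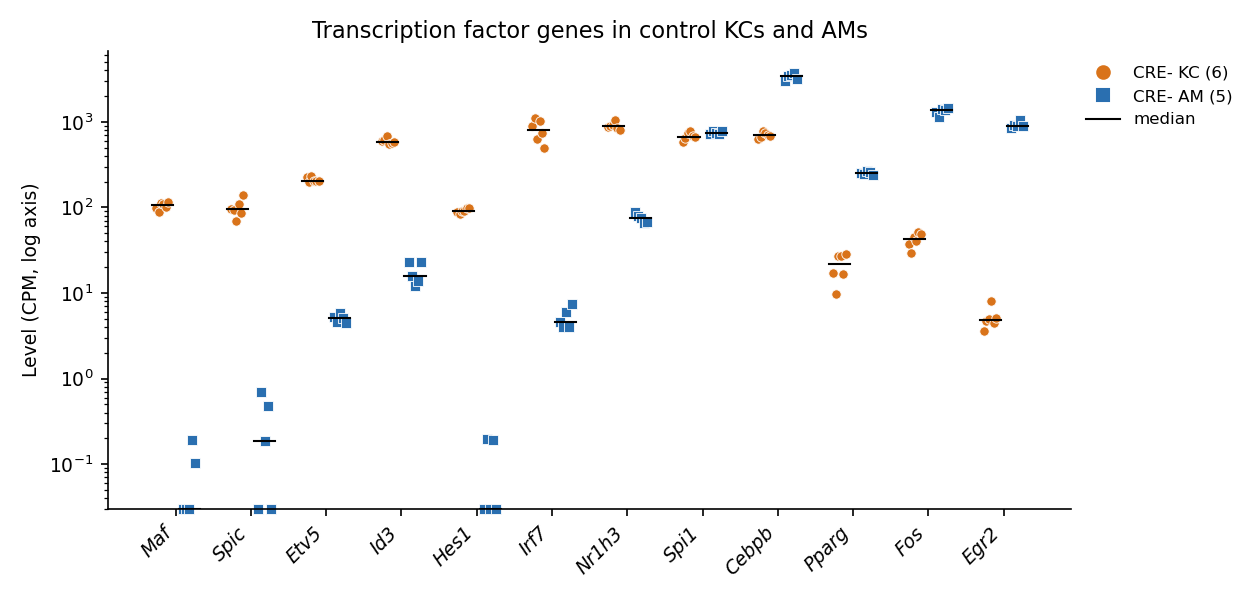
Level (CPM, log axis) of 12 transcription factor genes in each CRE- KC (orange circles) and CRE- AM sample (blue squares); samples without a count are drawn at the bottom edge. The 7 genes on the left were higher in KCs, the 4 on the right were higher in AMs, and Spi1 in between was not called.

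The inhibitor of DNA binding gene *Id3*, a target of BMP signaling that KCs are known to need, was at 552 to 692 CPM (median 589) in KCs and 23.1, 15.8, 11.9, 13.7 and 23.3 CPM in AMs (log2 fold change 5.10 ± 0.18 (SE), edgeR adjusted p = 7.29e-12). *Id2* was higher in KCs by less (1.15) and *Id1* was not called (-0.10). The Notch target *Hes1* was at 83.0 to 99.7 CPM (median 91.5) in KCs and 0, 0.199, 0, 0.193 and 0 CPM in AMs (log2 fold change 10.10 ± 0.30 (SE), edgeR adjusted p = 1.15e-12). *Hey1*, a further Notch target (4.004), was also higher in KC samples, but at 14.2 to 29.1 CPM. The part of endothelial cells, whose markers these samples held, was not tested for *Hey1*. Of the related bHLH genes, *Bhlhe40* was at 539.7, 563, 478, 583 and 546 CPM in AMs and 27.8 to 38.4 CPM (median 34.4) in KCs (log2 fold change -4.03 ± 0.09 (SE), edgeR adjusted p = 1.23e-13); with *Bhlhe41* it is known to maintain the self-renewal of AMs. *Bhlhe41* was called higher in AMs (-1.28) although the samples overlapped, with 44.7 to 83.7 CPM in AMs and 18.8 to 71.2 CPM in KCs.

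Of 30 nuclear receptors, which are factors switched by lipids and hormones, 9 (30.0%) were higher in KCs and 7 (23.3%) in AMs. *Pparg* was at 256, 245, 263, 262 and 238 CPM in AMs and 9.84 to 28.5 CPM (median 22.1) in KCs (log2 fold change -3.59 ± 0.22 (SE), edgeR adjusted p = 2.75e-09). Its partner *Rxra* (0.98) and the LXRβ gene *Nr1h2* (-0.20) were not called, whereas the LXRα gene *Nr1h3* was higher in KCs (3.59). The vitamin D receptor gene *Vdr* was at 50.4, 54.0, 45.1, 49.0 and 61.2 CPM in AMs and 1.04 to 3.15 CPM in KCs (log2 fold change -4.57 ± 0.24 (SE), edgeR adjusted p = 4.77e-10), and *Rara*, which encodes a retinoic acid receptor, was also higher in AMs (-2.37). *Thrb*, which encodes a thyroid hormone receptor, was at 27.8 to 45.5 CPM (median 35.1) in KCs and 0 to 0.945 CPM in AMs (log2 fold change 7.19 ± 0.51 (SE), edgeR adjusted p = 1.33e-08). The hepatocyte factor gene *Hnf4a* was at 1.40 to 2.62 CPM in KCs, where hepatocyte markers were also found.

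Of the runt factors, *Runx1* at 320.1, 340.4, 329, 389 and 315 CPM in AMs against 30.3 to 45.6 CPM in KCs (-3.19) and *Runx2* at 36.2, 42.8, 45.4, 48.8 and 41.8 CPM against 0 to 0.235 CPM (-9.42) were higher in AMs, as was *Cbfb* (-1.34), which encodes their shared partner. *Gata4* was without a count in AMs and at 9.89 to 66.2 CPM in KCs, at least 252-fold higher against the limit of 3 counts per sample; it is known from liver sinusoidal endothelium, whose markers were found in the KC samples. Of 12 NF-κB genes, 2 (16.7%) were higher in KCs and 2 (16.7%) in AMs, against 20.9% and 12.4% over all genes tested. *Tnfaip3*, which encodes A20, a brake on NF-κB that is itself induced by it, was at 157, 145, 175, 196 and 208 CPM in AMs and 20.7 to 40.2 CPM in KCs (-2.66), and *Rela* (-0.22) and *Nfkb1* (0.66) were not called. Of 57 further lineage factors 18 were higher in KCs and 5 in AMs. *Hic1*, a repressor, was at 108 to 189 CPM (median 161) in KCs and 0.815, 0.348, 0.0936, 0.242 and 0.727 CPM in AMs (log2 fold change 8.44 ± 0.29 (SE), edgeR adjusted p = 5.44e-12), *Pou2f2*, which encodes OCT2, was higher in KCs (6.40), and *Prdm1*, which encodes BLIMP1, was higher in AMs (-1.88). *Zeb2* itself, the floxed gene, was not called (291 ± 38.6 CPM in KCs and 198 ± 17.1 CPM in AMs).

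Type I interferon-stimulated genes, which cells switch on against viruses, were mostly higher in KCs. Of 50 tested, 45 were higher in KCs and none in AMs, with a median log2 fold change of 4.41 against 0.03 over all genes. *Irf7*, the factor that amplifies the type I interferon response, was at 490.4 to 1099 CPM (median 814) in KCs and 4.62, 3.98, 5.94, 4.01 and 7.38 CPM in AMs (log2 fold change 7.29 ± 0.27 (SE), edgeR adjusted p = 1.19e-11). *Ifitm3*, which blocks the entry of viruses, was at 701 to 1213 CPM (median 971) in KCs and 0.950, 0.796, 1.12, 1.06 and 1.56 CPM in AMs (log2 fold change 9.78 ± 0.20 (SE), edgeR adjusted p = 3.65e-14). *Oasl2*, an antiviral gene of the oligoadenylate synthetase family, was at 146 to 246 CPM (median 189) in KCs and 0.181, 0.696, 1.36, 1.31 and 2.91 CPM in AMs (log2 fold change 7.23 ± 0.37 (SE), edgeR adjusted p = 3.35e-10). In all 3 genes each KC sample lay far above each AM sample. *Rsad2*, which encodes viperin (6.17), *Ifit3* (6.88), *Usp18*, a brake on interferon receptor signaling (7.52), and *Isg15*, a ubiquitin-like modifier (3.85), were at lower levels and differed in the same direction. The members not called were *Slfn2* (0.86), *Ifi27* (-0.09), *Ifi35* (0.77), *Slfn3* (0.99) and *Slfn4* (-0.12). Reads of the Ifit, Ifitm, Oas and Slfn families can be split between close copies, so the sizes for single members are uncertain.

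The 14 tested GTPases of the GBP and IRG families, which are induced by interferon γ and attack vacuoles that hold pathogens, were all higher in KCs, with a median of 4.08. *Gbp2b*, known also as Gbp1, was at 219.6 to 309 CPM (median 243) in KCs and 0, 0, 0.0468, 0 and 0 CPM in AMs (log2 fold change 13.998 ± 0.28 (SE), edgeR adjusted p = 2.25e-14). *Iigp1*, which acts on *Toxoplasma* vacuoles, was at 126 to 168 CPM (median 147) in KCs and 0, 0.547, 0.0468, 0.0484 and 0 CPM in AMs (log2 fold change 10.12 ± 0.35 (SE), edgeR adjusted p = 5.44e-12). Upstream of both families, 9 of 15 IRF and STAT factors were higher in KCs, among them *Irf1* (299 ± 38.3 CPM against 24.6 ± 2.25 CPM), *Stat2* (2.60) and *Irf9* (2.20). *Irf3*, *Stat3* and *Stat6* were not called (-0.26, -0.81 and 0.01), and *Stat5a*, which acts downstream of GM-CSF, was higher in AMs (71.0 ± 15.3 CPM against 13.01 ± 1.96 CPM; -2.45). The receptor genes *Ifnar1*, *Ifnar2* and *Ifngr1* were higher in KCs too (1.58, 2.51 and 1.95), and *Ifngr2* was not called (0.89).

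Promoter sequences of 7 genes that carry these differences are shown, as examples of the letters that the factors above are known to bind. Only promoters with a match were shown, so it is no result that each holds its motif. They are the 250 bases before the start of transcription in RefSeq (GRCm38.p6), read 5′ to 3′ on the strand of the gene, and capitals mark the motif. Searches covered both strands, so a motif may stand in its reverse complement. In *Ifit3* (chr19:34583279-34583528, plus strand), *Isg15* (chr4:156200819-156201068, minus strand), *Rsad2* (chr12:26456453-26456702, minus strand) and *Gbp2b* (chr3:142594597-142594846, plus strand) capitals mark the interferon-stimulated response element in its core form, GAAA repeated after 2 bases, which 3.44% of all promoters of the table held; overlapping matches run together in *Isg15*.
Ifit3: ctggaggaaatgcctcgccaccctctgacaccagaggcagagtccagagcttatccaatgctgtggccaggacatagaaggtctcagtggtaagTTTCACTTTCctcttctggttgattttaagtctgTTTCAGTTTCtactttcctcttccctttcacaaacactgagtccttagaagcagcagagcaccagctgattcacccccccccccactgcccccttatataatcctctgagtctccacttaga
Isg15: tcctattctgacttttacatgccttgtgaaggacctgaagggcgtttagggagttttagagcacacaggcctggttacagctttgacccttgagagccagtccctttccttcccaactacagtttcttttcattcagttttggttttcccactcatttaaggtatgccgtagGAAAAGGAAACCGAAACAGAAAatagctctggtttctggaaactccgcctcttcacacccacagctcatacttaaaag
Rsad2: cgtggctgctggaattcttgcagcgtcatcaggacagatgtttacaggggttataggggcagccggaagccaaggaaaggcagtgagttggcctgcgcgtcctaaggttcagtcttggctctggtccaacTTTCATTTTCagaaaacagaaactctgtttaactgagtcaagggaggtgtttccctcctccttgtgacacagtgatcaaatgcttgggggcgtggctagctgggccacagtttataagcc
Gbp2b: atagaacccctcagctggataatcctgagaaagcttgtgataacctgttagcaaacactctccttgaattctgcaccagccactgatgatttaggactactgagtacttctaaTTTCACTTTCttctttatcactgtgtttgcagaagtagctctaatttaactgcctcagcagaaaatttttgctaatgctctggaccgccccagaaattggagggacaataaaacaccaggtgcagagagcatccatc
*Ifit3* held 2 matches, *Isg15* 3 and the other genes 1 each. *Hmgcs1* (chr13:119690101-119690350, plus strand), which was higher in AMs with other genes of cholesterol synthesis, held the letters TCACNCCAC of sterol-responsive elements, which 1.24% of all promoters held. *Timd4* (chr11:46810549-46810798, plus strand), the gene of the KC receptor Tim4, held the MAF site TGCTGAC, present in 4.67% of all promoters. *Plet1* (chr9:50494275-50494524, plus strand), higher in AMs, held the C/EBP site TTGCNNAA, present in 10.8% of all promoters.
Hmgcs1: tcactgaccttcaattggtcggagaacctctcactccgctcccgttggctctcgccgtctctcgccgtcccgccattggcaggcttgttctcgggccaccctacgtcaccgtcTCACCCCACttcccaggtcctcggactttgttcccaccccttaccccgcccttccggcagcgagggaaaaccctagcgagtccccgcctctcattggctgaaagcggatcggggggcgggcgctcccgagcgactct
Timd4: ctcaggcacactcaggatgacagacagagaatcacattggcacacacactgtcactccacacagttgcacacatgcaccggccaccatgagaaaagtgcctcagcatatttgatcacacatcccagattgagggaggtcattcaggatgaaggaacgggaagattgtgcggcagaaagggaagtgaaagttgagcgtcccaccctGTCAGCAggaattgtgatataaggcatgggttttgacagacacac
Plet1: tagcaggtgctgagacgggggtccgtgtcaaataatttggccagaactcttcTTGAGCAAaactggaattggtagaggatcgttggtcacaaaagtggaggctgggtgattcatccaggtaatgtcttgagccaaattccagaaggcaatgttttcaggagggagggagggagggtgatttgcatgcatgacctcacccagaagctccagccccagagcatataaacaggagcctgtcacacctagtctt
A match is a description of the letters and not a site of binding. Of the 45 interferon-stimulated genes higher in KCs, 35 had a promoter in the table, which is under 80%, so no share is given over them.

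Of 42 PPARγ targets and genes of lipid uptake and storage, 25 were higher in AMs and 8 in KCs. *Plin2*, which coats lipid droplets, was at 1680.0, 1822, 1913, 1910.4 and 2011 CPM in AMs and 194 to 333 CPM (median 226) in KCs (log2 fold change -2.94 ± 0.13 (SE), edgeR adjusted p = 5.57e-11). *Cidec*, which helps lipid droplets fuse, was at 423, 491, 489.5, 497 and 565 CPM in AMs and 0 to 0.413 CPM in KCs (log2 fold change -12.77 ± 0.33 (SE), edgeR adjusted p = 2.72e-13). No KC sample reached an AM sample in either droplet gene. *Fabp5* (-4.63), *Fabp4* (-2.33) and *Fabp1* (-2.99), which encode fatty acid binding proteins, were higher in AMs, but *Fabp7* was at 245 to 493 CPM (median 343) in KCs and 0 to 0.571 CPM in AMs (10.91). *Dgat2* (-4.53), which makes triglyceride, *Lpin1* (-4.14) and *Angptl4* (-5.53), an inhibitor of lipoprotein lipase, were also higher in AMs. The lysosomal lipase gene *Lipa* and the cholesterol esterification gene *Soat1* were not called (-0.06 and -0.09).

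Of 24 genes of cholesterol synthesis and its regulation, 16 were higher in AMs and none in KCs, with a median log2 fold change of -1.53. *Sqle*, which encodes squalene epoxidase, was at 88.1, 88.0, 96.2, 90.1 and 79.2 CPM in AMs and 2.12 to 4.72 CPM (median 3.40) in KCs (log2 fold change -4.71 ± 0.20 (SE), edgeR adjusted p = 6.31e-11). *Hmgcs1*, the cytosolic HMG-CoA synthase gene, was at 143, 153, 168, 178 and 142 CPM in AMs and 28.1 to 43.3 CPM (median 34.8) in KCs (log2 fold change -2.13 ± 0.11 (SE), edgeR adjusted p = 4.01e-10). No KC sample reached an AM sample in either gene. *Srebf2*, the gene of SREBP2, the factor that drives these genes, was not called (-0.94), nor was *Srebf1* (-0.49).

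LXR targets, among them genes that export and transport cholesterol, leaned to KCs, with 10 of 18 higher there and 3 in AMs. The list holds *Nr1h3* itself and *Cd5l*, which is also on the list of KC markers, and both were higher in KCs. *Apoe* was at 7006 to 14449 CPM (median 13030.4) in KCs and 54.1, 37.5, 35.5, 61.2 and 25.2 CPM in AMs (log2 fold change 8.08 ± 0.33 (SE), edgeR adjusted p = 3.30e-11), and is made by hepatocytes too. *Abca1*, an exporter of cholesterol to apolipoproteins, was at 419.6 to 477 CPM (median 432) in KCs and 70.0, 94.2, 71.0, 75.3 and 62.4 CPM in AMs (log2 fold change 2.55 ± 0.10 (SE), edgeR adjusted p = 1.33e-11). The related exporter gene *Abcg1* was the reverse, at 1305, 1441, 1362, 1373 and 1395 CPM in AMs and 199 to 261 CPM (median 229) in KCs (log2 fold change -2.58 ± 0.07 (SE), edgeR adjusted p = 4.33e-13). *Scd1*, a desaturase and LXR target, was at 104 to 175 CPM in KCs and 2.76 to 5.97 CPM in AMs (4.95). *Apoc1* (7.09) and *Pltp* (2.44), which encodes a phospholipid transfer protein, were higher in KCs, and *Lpcat3* (-1.66) and *Lpl* (-1.17) in AMs, so members of the list were called in both directions. In fatty acid synthesis, the desaturase gene *Fads1* was at 107 to 153 CPM (median 140.3) in KCs and 15.1, 11.3, 11.7, 15.04 and 13.2 CPM in AMs (log2 fold change 3.37 ± 0.12 (SE), edgeR adjusted p = 8.14e-12), *Acss2* was higher in KCs (2.32) and *Elovl5* in AMs (-1.08), while *Fasn* (-0.80) and *Acly* (0.34) were not called. Phospholipid turnover was also divided, with 8 of 22 genes higher in KCs and 6 in AMs. *Plbd1*, a phospholipase B-like gene, was at 715 to 1048 CPM (median 850.4) in KCs and 0.0905, 0.0497, 0.328, 1.06 and 1.45 CPM in AMs (log2 fold change 10.51 ± 0.37 (SE), edgeR adjusted p = 6.85e-12), and *Gpcpd1*, which cleaves glycerophosphocholine, was at 409, 413, 438, 349.7 and 303 CPM in AMs and 36.1 to 68.0 CPM in KCs (log2 fold change -2.91 ± 0.15 (SE), edgeR adjusted p = 4.40e-10). The lysosomal phospholipase A2 gene *Pla2g15*, which degrades surfactant phospholipid, was not called (871 ± 107 CPM and 1298 ± 101 CPM).

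Mitochondrial fatty acid oxidation had 11 of 25 genes higher in AMs and none in KCs, but by small amounts, from -1.04 for *Acadm* to -1.35 for *Crat* on the log2 scale. The call of *Acadm* was lost without KC replicate 2, and those of *Acadm* and *Cpt1a* when tested against a fold change of 2 by glmTreat. Single calls were followed in this way only for genes named in the text, so those of the other members called are not known. *Cpt1a*, the gate of fatty acid entry into mitochondria, was at 487, 509, 582, 555 and 567 CPM in AMs and 218 to 307 CPM (median 237) in KCs (log2 fold change -1.12 ± 0.09 (SE), edgeR adjusted p = 6.15e-08). Of 30 peroxisomal genes, 10 were higher in AMs, led by the β-oxidation genes *Acaa1b* (-4.74) and *Acox3* (-2.53), and 1, *Amacr*, in KCs (1.501). Few genes downstream were called. Of 73 genes of oxidative phosphorylation 71 were not called (median -0.22), and the 2 higher in AMs were the low-level isoform genes *Cox6b2* (17.3 ± 2.32 CPM against 1.03 ± 0.281 CPM) and *Cox7a1*, whose call was lost without AM replicate 2 or 3. Of 27 tricarboxylic acid cycle genes 24 were not called (median -0.13). The exceptions were *Mpc1* and *Mpc2*, which encode the mitochondrial pyruvate carrier and were higher in AMs (-2.12 and -1.02, the call of *Mpc2* being lost without AM replicate 2 and without KC replicate 2, 5 or 6), and *Irg1*, which makes itaconate from the cycle (9.83 ± 6.33 CPM in KCs against 1.10 ± 0.644 CPM in AMs; 3.16). None of the 59 cytosolic ribosomal protein genes was called (median -0.22).

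**Figure D4:**
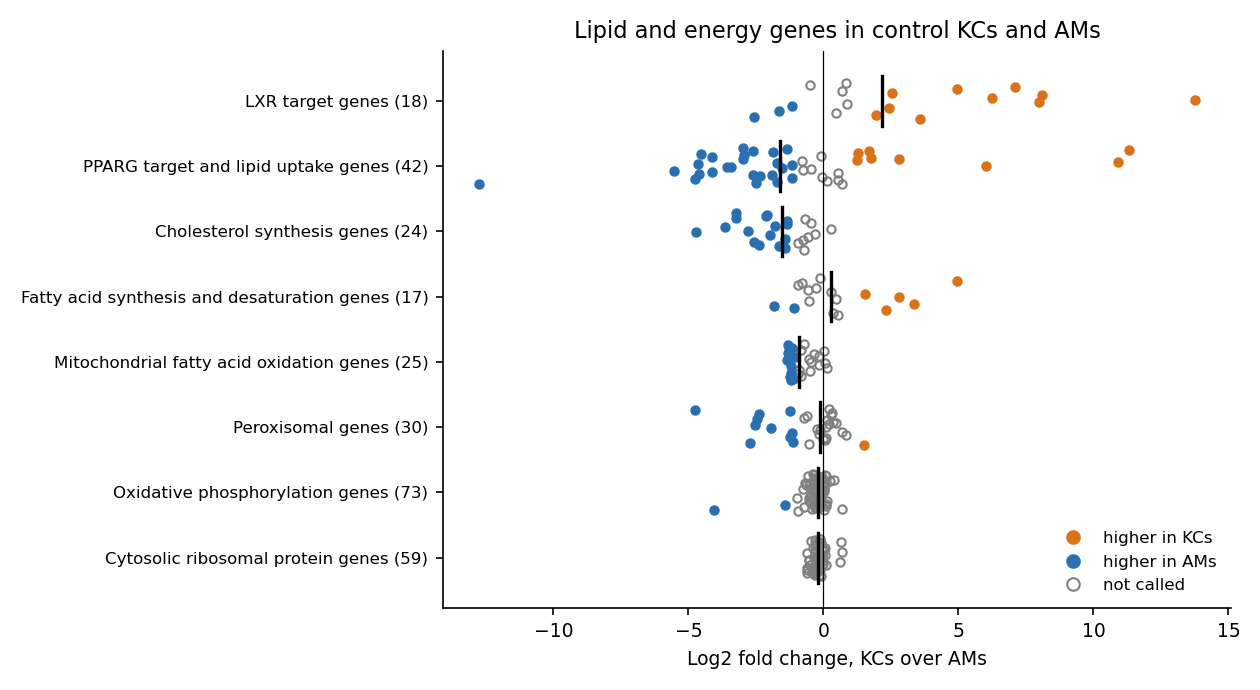
Log2 fold change of KCs over AMs for each tested gene (points) of 8 lists of lipid and energy metabolism, filled where the gene was called, with the median of each list as a bar. Cholesterol synthesis, PPARγ and β-oxidation genes lie mostly to the left, towards AMs, LXR targets spread to the right, and oxidative phosphorylation and ribosomal genes lie close to 0.

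Glycolysis genes were called in both directions, with 8 of 26 genes (30.8%) higher in KCs and 6 (23.1%) in AMs. Hexokinase 3, *Hk3*, was at 431 to 509 CPM (median 473) in KCs and 46.3, 48.4, 58.1, 56.4 and 57.0 CPM in AMs (log2 fold change 3.14 ± 0.08 (SE), edgeR adjusted p = 3.52e-13). *Hk1* (2.14) and *Hk2* (1.30) were also higher in KCs. The 6 genes higher in AMs included *Pfkp* (-2.05), *Pfkfb4* (-2.76) and the lactate carriers *Slc16a1* (-2.77) and *Slc16a3* (-2.40). *Aldoc* was also among them, at 125, 99.3, 115, 150.3 and 109 CPM in AMs and 3.33 to 6.96 CPM in KCs (log2 fold change -4.83 ± 0.19 (SE), edgeR adjusted p = 1.86e-11). *Ldha* and *Pkm* were not called (-0.49 and -0.27). In gluconeogenesis, glycogen and the pentose phosphate pathway 5 of 19 genes were higher in KCs and 3 in AMs, the glycogen phosphorylase *Pygb* being at 262 ± 19.3 CPM in KCs and 45.04 ± 7.39 CPM in AMs (2.54), and *G6pdx* was not called (-0.05).

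Of 38 genes of heme and iron handling tested, 14 (36.8%) were higher in KCs and 5 (13.2%) in AMs. *Cd163*, the receptor for hemoglobin bound to haptoglobin, was at 1142 to 1571 CPM (median 1266) in KCs and 0, 0, 0.374, 0.145 and 0 CPM in AMs (log2 fold change 13.51 ± 0.30 (SE), edgeR adjusted p = 7.92e-14). *Hmox1*, which opens the heme ring, was at 1241 to 2441 CPM (median 1612) in KCs and 208, 275, 302, 356 and 275 CPM in AMs (log2 fold change 2.56 ± 0.17 (SE), edgeR adjusted p = 9.93e-09). *Slc40a1*, which encodes ferroportin, the exporter of iron, was at 11545 to 15981 CPM (median 13182) in KCs and 19.4, 24.1, 30.6, 26.0 and 30.8 CPM in AMs (log2 fold change 8.997 ± 0.17 (SE), edgeR adjusted p = 1.64e-14). The 3 genes stood far apart between the groups in every sample. *Slc11a1*, the phagosomal metal pump Nramp1 (6.82), the biliverdin reductase gene *Blvrb* (2.86), the heme exporter gene *Mfsd7b*, also named Flvcr1 (1.49), *Hfe* (3.81) and the transferrin receptor gene *Tfrc* (3.03) were also higher in KCs. In AMs, *Alas1*, the first step of heme synthesis, was at 536, 563, 549.8, 545 and 521 CPM against 32.6 to 58.6 CPM (median 50.2) in KCs (log2 fold change -3.50 ± 0.13 (SE), edgeR adjusted p = 9.79e-12), and *Mfsd7c*, which encodes a transporter also named Flvcr2, was at 292, 323, 317, 354 and 365 CPM against 0 to 0.914 CPM (log2 fold change -11.09 ± 0.43 (SE), edgeR adjusted p = 1.70e-11). The other heme oxygenase gene, *Hmox2*, was not called (0.81), and the other biliverdin reductase gene, *Blvra*, was called higher in AMs (-1.04), a call lost without KC replicate 2. Of the ferritin chains, *Fth1* was higher in AMs (-1.37) and *Ftl1* was not called (14794 ± 1445 CPM in KCs and 16378 ± 980.0 CPM in AMs). *Hpx* and *Hamp* are made by hepatocytes, and *Hpx*, at 17.6 to 38.4 CPM in KCs and without a count in AMs, stands on the hepatocyte list.

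Of 31 eicosanoid genes 14 were higher in KCs and 9 in AMs. *Alox5*, the 5-lipoxygenase, was at 483, 529.5, 489, 511 and 517 CPM in AMs and 1.67 to 7.38 CPM (median 3.58) in KCs (log2 fold change -6.98 ± 0.24 (SE), edgeR adjusted p = 6.26e-12), and the leukotriene genes *Alox5ap* (-1.20), *Lta4h* (-2.01) and *Ltc4s* (-2.74) differed in the same direction. The constitutive cyclooxygenase gene *Ptgs1* was at 1531 to 1691 CPM (median 1621) in KCs and 43.8, 35.0, 40.5, 47.2 and 35.1 CPM in AMs (log2 fold change 5.33 ± 0.09 (SE), edgeR adjusted p = 9.39e-15). *Hpgd*, which inactivates prostaglandins, was at 2229 to 3082 CPM (median 2654) in KCs and 6.29, 5.87, 5.90, 5.90 and 8.67 CPM in AMs (log2 fold change 8.66 ± 0.15 (SE), edgeR adjusted p = 6.17e-15). The prostacyclin synthase gene *Ptgis* (9.17) was higher in KCs and the prostacyclin receptor gene *Ptgir* (-6.17) in AMs. *Pla2g7*, which breaks down platelet-activating factor, was at 247 to 437 CPM in KCs and 0.860 to 4.73 CPM in AMs (7.10). Thromboxane synthase, *Tbxas1*, was not called (0.30).

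In the metabolism of amino acids and nucleotides, 17 of 43 genes (39.5%) were higher in KCs and 5 (11.6%) in AMs. *Phgdh*, the first enzyme of serine synthesis, was at 409, 399, 378, 379 and 429 CPM in AMs and 0 to 1.67 CPM (median 0.903) in KCs (log2 fold change -8.83 ± 0.34 (SE), edgeR adjusted p = 1.54e-11). The second enzyme, *Psat1*, was also higher in AMs (-2.61), and the third, *Psph*, was not called (-0.71). *Xdh*, which makes uric acid, was at 305 to 369 CPM (median 335) in KCs and 17.1, 27.0, 27.3, 26.1 and 25.1 CPM in AMs (log2 fold change 3.78 ± 0.12 (SE), edgeR adjusted p = 2.20e-12). Adenosine deaminase, *Ada*, was also higher in KCs (6.44), whereas guanine deaminase, *Gda*, was at 169, 168, 133, 144 and 124 CPM in AMs and 1.02 to 3.45 CPM in KCs (log2 fold change -6.19 ± 0.24 (SE), edgeR adjusted p = 2.07e-11). Several genes of the list that were higher in KC samples and at or near 0 in AMs, such as *Uox* at 9.44 to 29.2 CPM and *Tdo2*, are known from hepatocytes. Of the glutathione genes, the microsomal transferases *Mgst1* (524 ± 50.2 CPM against 51.3 ± 19.9 CPM) and *Mgst3* (-3.78) and the cystine carrier gene *Slc7a11* (15.6 ± 5.34 CPM against 0.0930 ± 0.156 CPM) were higher in AMs, and *Gpx3* (4.87) and *Gpx1* (1.16) in KCs, with 15 of 45 higher in KCs and 7 in AMs overall. Of 39 genes of xenobiotic, retinoid and steroid metabolism 13 were higher in KCs and 12 in AMs. *Ch25h*, which makes 25-hydroxycholesterol, was at 133, 135, 128, 144 and 161 CPM in AMs and 0 to 1.08 CPM in KCs (log2 fold change -9.18 ± 0.42 (SE), edgeR adjusted p = 9.74e-11), and *Abcc3*, an exporter of bile acids and conjugates, at 1106 to 1169 CPM (median 1166) in KCs and 0, 0.746, 0.515, 1.02 and 0.883 CPM in AMs (log2 fold change 10.84 ± 0.28 (SE), edgeR adjusted p = 2.77e-13). Of 52 solute carriers 20 (38.5%) were higher in KCs and 12 (23.1%) in AMs. The serotonin transporter gene *Slc6a4* was at 101 to 148 CPM in AMs and 0 to 0.948 CPM in KCs (-8.86), the cationic amino acid carrier gene *Slc7a2* at 534 to 661 CPM and 7.56 to 17.9 CPM (-5.46), and the monocarboxylate carrier gene *Slc16a9* at 209 to 253 CPM in KCs and 0 to 0.156 CPM in AMs (12.33).

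Scavenger and efferocytosis receptors, by which macs take up modified lipoproteins and dying cells, differed in identity. Of 22 scavenger receptor genes 9 were higher in KCs and 5 in AMs. *Msr1*, scavenger receptor A, was at 611 to 835 CPM (median 654) in KCs and 19.0, 35.1, 34.2, 32.2 and 22.8 CPM in AMs (log2 fold change 4.58 ± 0.18 (SE), edgeR adjusted p = 1.59e-11). *Olr1*, the receptor for oxidized LDL, was at 445, 434, 498, 563 and 459.6 CPM in AMs and 0 to 0.610 CPM in KCs (log2 fold change -11.71 ± 0.32 (SE), edgeR adjusted p = 4.59e-13). *Marco* (621 ± 293 CPM and 414 ± 81.8 CPM), *Mrc1* (1089 ± 125 CPM and 760.3 ± 83.6 CPM) and *Cd36* (311 ± 154 CPM and 523 ± 41.3 CPM) were not called. *Cd5l*, a soluble scavenger protein, was at 7156 to 8501 CPM (median 7291) in KCs and 0.104 to 1.83 CPM in AMs. *Stab1* and *Stab2* were at 159 to 299 CPM and 275 to 453 CPM in KCs and had at most 1 count in an AM sample. *Stab2* stands on the liver endothelial list. Of 37 genes for the uptake of dying cells 17 were higher in KCs and 6 in AMs. *Timd4* was higher in KCs (15.50), *Axl* (2724 ± 214 CPM and 2857 ± 79.3 CPM) and *Mertk* were not called, and *Anxa1*, an anti-inflammatory annexin, was at 799, 736, 763, 714 and 782 CPM in AMs and 2.62 to 4.69 CPM in KCs (log2 fold change -7.64 ± 0.14 (SE), edgeR adjusted p = 1.25e-14).

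Of 22 complement genes 18 were higher in KCs, and 1, *C3*, was higher in AMs (152 to 236 CPM against 63.6 to 163 CPM, overlapping; -1.09), a call lost without KC replicate 6. The 3 chains of C1q, which start the classical pathway, were far higher in KCs. *C1qa* was at 4585 to 5340.1 CPM (median 4929) in KCs and 0.362, 1.29, 0.0468, 0.242 and 0.416 CPM in AMs (log2 fold change 13.36 ± 0.31 (SE), edgeR adjusted p = 1.02e-13), *C1qb* at 6357 ± 411 CPM and 0.639 ± 0.320 CPM, and *C1qc* at 6319 ± 391 CPM and 0.687 ± 0.265 CPM. *C4b* was at 661 to 1269 CPM (median 897) in KCs and 1.45, 0.995, 3.70, 4.93 and 3.84 CPM in AMs (log2 fold change 8.24 ± 0.35 (SE), edgeR adjusted p = 5.35e-11), and *C6* at 1158 to 1521 CPM and 0 to 0.0995 CPM (14.36). Properdin, *Cfp*, which stabilizes the alternative pathway, was at 3407 to 4435 CPM (median 4139) in KCs and 292, 282, 320.5, 305 and 352 CPM in AMs (log2 fold change 3.69 ± 0.09 (SE), edgeR adjusted p = 2.15e-13). *Cfb* was not called (0.09). Among the receptors, *Vsig4*, which binds C3b, and *C3ar1* were higher in KCs (14.45 and 8.79), and *C5ar1* in AMs (1051 ± 76.6 CPM against 242 ± 62.1 CPM; -2.12). Low-level complement genes such as *Masp1* at 6.61 to 20.3 CPM and *Vtn* at 6.96 to 19.7 CPM in KCs are made by hepatocytes, as is much of this list.

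Of 22 Fc and complement receptor genes 12 were higher in KCs and 3 in AMs, and of 47 integrins and adhesion molecules 19 and 16. The partners of the β2 integrin chain differed. *Itgax*, CD11c, was at 762, 651, 709, 808 and 805 CPM in AMs and 2.34 to 11.8 CPM in KCs (log2 fold change -6.62 ± 0.31 (SE), edgeR adjusted p = 1.68e-10), whereas *Itgam*, CD11b, was at 64.7 to 100.5 CPM (median 85.9) in KCs and 2.44, 0.398, 3.46, 1.5 and 1.92 CPM in AMs (log2 fold change 5.44 ± 0.32 (SE), edgeR adjusted p = 1.66e-09). Their shared β chain, *Itgb2*, was higher in AMs (-2.39), and *Itgal* was not called (0.62). *Itga9*, which binds VCAM1 and tenascin, was without a count in AMs and at 544 to 656 CPM (median 636) in KCs, at least 4274-fold higher against the limit of 3 counts per sample. *Vcam1* was at 437 to 1075 CPM (median 519) in KCs and 0.0453, 0.0995, 2.29, 0 and 0.467 CPM in AMs (log2 fold change 9.98 ± 0.57 (SE), edgeR adjusted p = 1.41e-09). E-cadherin, *Cdh1*, was at 115, 75.6, 87.6, 107 and 90.3 CPM in AMs and 0 to 1.08 CPM in KCs (log2 fold change -7.45 ± 0.32 (SE), edgeR adjusted p = 5.11e-11). VE-cadherin, *Cdh5*, was higher in KCs (9.75) and is an endothelial gene in most tissues. The tetraspanin gene *Cd9* was at 6709, 7067, 6529.7, 6069 and 6395 CPM in AMs and 19.1 to 28.9 CPM (median 24.3) in KCs (log2 fold change -8.09 ± 0.11 (SE), edgeR adjusted p = 9.48e-16), and the tetraspanin gene *Cd81* was higher in KCs (2.43).

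Of 38 C-type lectins, which recognize sugars, 18 were higher in KCs and 9 in AMs. Besides *Clec4f* (15.26), *Cd207*, which encodes langerin, was at 432 to 840.3 CPM (median 543) in KCs and 0.0453, 0, 0, 0.0484 and 0 CPM in AMs (log2 fold change 14.53 ± 0.42 (SE), edgeR adjusted p = 7.81e-13), and *Clec4g*, on the endothelial list, at 71.6 to 374 CPM. On the AM side, *Ly75*, DEC-205, was at 328, 364, 369.8, 423 and 409.9 CPM in AMs and 0.971 to 3.92 CPM in KCs (log2 fold change -7.64 ± 0.23 (SE), edgeR adjusted p = 1.50e-12). The fungal sensors Dectin-1, *Clec7a* (-1.62), Dectin-2, *Clec4n* (-1.42), and Mincle, *Clec4e* (-5.73), were all higher in AMs, with *Clec7a* at 1150.5 to 1308 CPM in AMs and 317 to 519.9 CPM in KCs. Of 46 Siglecs and paired receptors 17 were higher in KCs and 14 in AMs. *Siglecf* was at 545, 510.1, 487, 539 and 613 CPM in AMs and 1.68 to 5.87 CPM (median 5.06) in KCs (log2 fold change -6.85 ± 0.21 (SE), edgeR adjusted p = 1.87e-12), and *Trem1*, which amplifies inflammation, was at 138, 137, 142, 125 and 126 CPM in AMs and 0 to 0.877 CPM in KCs (log2 fold change -9.02 ± 0.40 (SE), edgeR adjusted p = 7.48e-11). *Cd300ld* (4.59), *Treml4* (3.59) and *Siglece* (2.78) were higher in KCs, and *Trem2* was not called (-0.39).

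Of 48 sensors of microbial products 26 were not called, 17 (35.4%) were higher in KCs and 5 (10.4%) in AMs. *Tlr4* (302 ± 45.5 CPM and 256 ± 20.1 CPM), *Tlr7* and *Tlr8* were not called. *Tlr2* was at 1319.7, 1405, 1524, 1615 and 1515 CPM in AMs and 182 to 305 CPM (median 229) in KCs (log2 fold change -2.67 ± 0.12 (SE), edgeR adjusted p = 1.39e-10). *Tlr12*, a sensor of *Toxoplasma* profilin in mice, was at 161 to 274 CPM (median 191) in KCs and 0, 0, 0.0468, 0 and 0 CPM in AMs (log2 fold change 13.67 ± 0.34 (SE), edgeR adjusted p = 2.07e-13). *Tlr1* (10.32) and *Tlr3* (1.56) were higher in KCs and the flagellin receptor gene *Tlr5* in AMs (-5.02). *Lbp*, which carries endotoxin to CD14, was at 35.6 to 71.0 CPM in KCs and is a hepatocyte product too, while *Cd14* was not called (-0.19).

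Of 40 chemokine and chemokine receptor genes, 18 were higher in KCs and 15 in AMs. *Ccl24*, an attractant of eosinophils, was at 221 to 394 CPM (median 338) in KCs and 0, 0.0497, 0.0468, 0 and 0 CPM in AMs (log2 fold change 13.63 ± 0.31 (SE), edgeR adjusted p = 9.29e-14), and *Cxcl13*, which attracts B cells, at 147 to 427 CPM (median 171) and 0, 0, 0, 0.387 and 0.675 CPM (log2 fold change 10.02 ± 0.57 (SE), edgeR adjusted p = 1.19e-09). *Ccl6*, a chemokine of macs in mice, was at 6138, 6030.0, 5280.0, 5914 and 5373 CPM in AMs and 987 to 1631 CPM (median 1442) in KCs (log2 fold change -2.04 ± 0.10 (SE), edgeR adjusted p = 3.77e-10). The attractants of neutrophils *Cxcl1* (-4.89), *Cxcl2* (168 ± 34.4 CPM against 1.33 ± 0.316 CPM) and *Cxcl3* (7.40 ± 3.11 CPM, no count in KCs) were higher in AMs, as were *Ccl3* (-4.50) and *Ccl4* (-2.77), which are immediate responses to stimulation. *Cxcl9* (5.29) and *Cxcl10* (3.11), both induced by interferon, were higher in KCs. Among the receptors, *Ccr1* was at 205, 213, 218, 206 and 229 CPM in AMs and 0.282 to 4.92 CPM in KCs (log2 fold change -6.92 ± 0.51 (SE), edgeR adjusted p = 2.25e-08). *Ccr3* had no count in AMs and 43.9 to 63.1 CPM in KCs, while the eosinophil genes *Epx* and *Prg2* had no count in either group. *Ccr2*, the receptor of classical monocytes, was not called (5.12 ± 2.39 CPM and 5.55 ± 1.72 CPM).

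**Figure D5:**
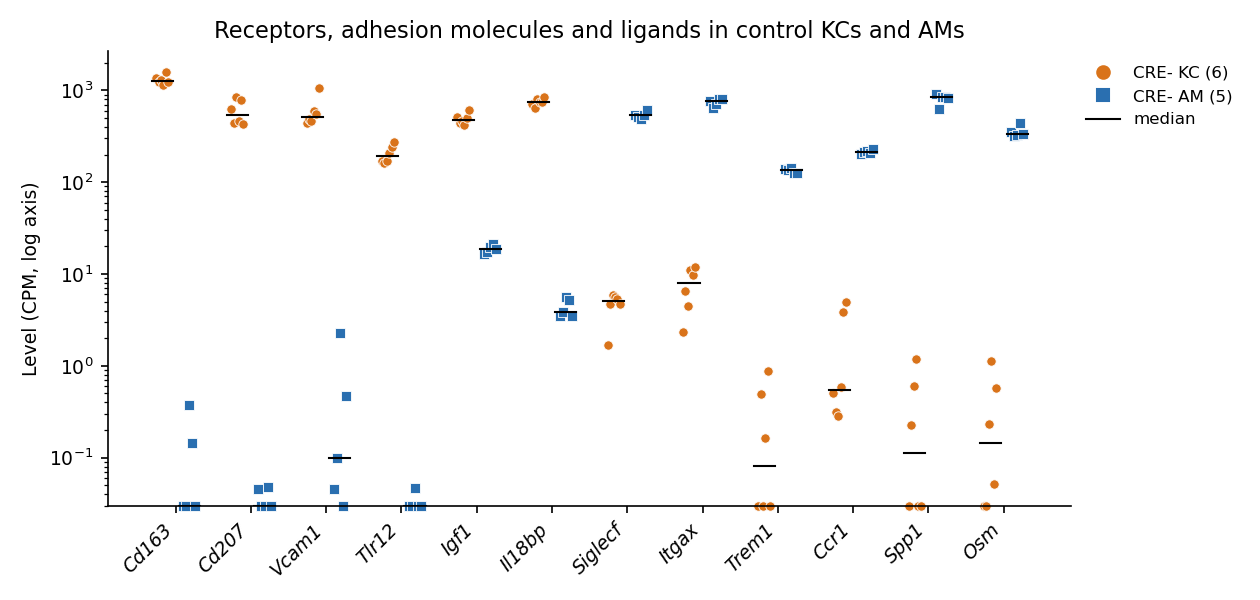
Level (CPM, log axis) of 12 receptor, integrin and secreted ligand genes in each CRE- KC (orange circles) and CRE- AM sample (blue squares); samples without a count are drawn at the bottom edge. The first 6 genes were higher in KCs and the last 6 higher in AMs, without overlap.

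Cytokine and growth factor genes were divided too, with 22 of 48 higher in KCs and 16 in AMs. *Igf1* was at 415 to 613 CPM (median 481) in KCs and 16.5, 17.5, 19.5, 21.04 and 18.9 CPM in AMs (log2 fold change 4.72 ± 0.12 (SE), edgeR adjusted p = 1.93e-13). *Spp1*, osteopontin, was at 917, 621, 839.7, 843 and 826 CPM in AMs and 0 to 1.19 CPM in KCs (log2 fold change -11.26 ± 0.40 (SE), edgeR adjusted p = 8.14e-12). *Osm*, oncostatin M, was at 353, 322, 328, 447 and 337 CPM in AMs and 0 to 1.13 CPM in KCs (log2 fold change -10.08 ± 0.38 (SE), edgeR adjusted p = 1.33e-11). Its receptor gene *Osmr* was not found in any AM sample and was at 0.877 to 8.38 CPM in KCs. The LIF receptor gene *Lifr* was at 27.0 to 137 CPM in KCs and 0 to 0.339 CPM in AMs (9.36). Both receptor genes varied widely between KC samples, which also held endothelial and hepatocyte markers, and the part of those cells was not tested. *Lif* itself had 3.89 to 9.77 CPM in AMs and no count in KCs. The epidermal growth factor ligands *Areg* (9.95 to 21.6 CPM) and *Ereg* (2.54 to 7.98 CPM) likewise had counts in AMs alone. *Il1b* (-1.71), *Il18* (349 ± 18.2 CPM against 66.3 ± 11.2 CPM; -2.40) and *Tnf* (-3.03) were higher in AMs. In KCs, *Il18bp*, the secreted inhibitor of IL-18, was at 643 to 842 CPM (median 751) against 3.53, 3.83, 5.57, 5.22 and 3.48 CPM (log2 fold change 7.43 ± 0.15 (SE), edgeR adjusted p = 2.25e-14), the opposite direction to its target. *Csf1*, the ligand of CSF1R, was at 7.14 to 21.9 CPM in KC samples and 0.484 to 1.82 CPM in AMs (3.48). *Csf2ra* and *Csf2rb*, the chains of the GM-CSF receptor, were higher in AMs (-1.39 and -1.19).

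Of 32 genes of TGF-β and BMP reception, 13 (40.6%) were higher in KCs and 4 (12.5%) in AMs. The inhibitory SMAD genes *Smad6* (71.7 ± 9.86 CPM against 4.39 ± 2.67 CPM) and *Smad7* (40.7 ± 2.07 CPM against 6.35 ± 1.06 CPM), which BMP and TGF-β signals induce, were higher in KCs, as was *Acvrl1*, the ALK1 receptor for BMP9 and BMP10 (1.36). *Tgfbr1* was at 818, 648, 619.8, 665 and 650.2 CPM in AMs and 222 to 319 CPM (median 273) in KCs (log2 fold change -1.32 ± 0.09 (SE), edgeR adjusted p = 1.33e-08), and *Tgfbr2* (-0.98) and *Tgfb1* (-0.42) were not called. *Eng*, the co-receptor endoglin (66.3 to 240.0 CPM in KCs), and *Bmp2* (32.7 to 201 CPM), which is on the endothelial list, are both known from sinusoidal endothelium. In the Notch pathway the ligand *Dll4* was at 8.13 to 23.1 CPM in KC samples, which also held endothelial markers, and the part of those cells was not tested. *Jag1* was at 10.9 to 20.4 CPM in AMs and 0 to 0.577 CPM in KCs (-6.20), and *Notch1* and *Rbpj* were not called (-0.26 and -0.22). Over Notch and Wnt genes together 12 of 32 were higher in KCs and 8 in AMs, among the latter *Ctnnb1*, the gene of β-catenin (828 ± 37.9 CPM against 281 ± 15.1 CPM; -1.56). Of 40 interleukin, interferon and CSF receptors 19 were higher in KCs and 8 in AMs, *Il10ra* being at 274 ± 27.2 CPM in KCs and 76.0 ± 8.15 CPM in AMs (1.85). Of 16 TNF receptors 3 were higher in KCs and 6 in AMs, with RANK, *Tnfrsf11a*, at 109 to 159 CPM (median 129) in KCs and 33.5, 28.7, 41.1, 27.4 and 35.4 CPM in AMs (log2 fold change 1.99 ± 0.12 (SE), edgeR adjusted p = 3.69e-09).

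Class II molecules present antigen to CD4 T cells. Of 17 genes tested of the class II list, 9 were higher in KCs and 3 in AMs. *Cd74*, the invariant chain, was at 4031 to 11369.5 CPM (median 6530.1) in KCs and 139.6, 102, 112, 257 and 293 CPM in AMs (log2 fold change 5.24 ± 0.39 (SE), edgeR adjusted p = 2.73e-08), and *H2-Ab1* at 1423 to 4424 CPM (median 2363) and 31.4, 30.2, 26.7, 49.6 and 58.6 CPM (log2 fold change 6.05 ± 0.36 (SE), edgeR adjusted p = 1.81e-09). The class II regulator *Ciita* (3.65) and the costimulatory genes *Cd86* (434 ± 26.4 CPM against 9.60 ± 2.45 CPM; 5.50) and *Cd40* (9.49) were higher in KCs, and *Cd274*, PD-L1, was higher in AMs (-1.22). In AMs the whole list summed to 5341 to 6001 CPM, so most of its level there lay on members other than *Cd74* and *H2-Ab1*. Class II genes are also carried by B cells and dendritic cells, whose markers were at the sums given above, and both *Cd74* and *H2-Ab1* varied by more than 2-fold between KC samples. Of 22 class I genes 10 were higher in KCs and none in AMs, by less, *B2m* being at 3569.5 ± 270.1 CPM in KCs and 1666 ± 104 CPM in AMs (1.10).

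Of 29 antimicrobial and oxidant genes 19 were higher in AMs and 4 in KCs. *Chil3*, the chitinase-like protein Ym1, was at 16849, 27570.0, 26046, 26969 and 26112 CPM in AMs and at 0 to 1.08 CPM in KCs. *Ear1* (-11.09) and *Ear2* (-3.77), eosinophil-associated ribonucleases, and the S100 genes *S100a11* (469 ± 38.4 CPM against 3.58 ± 0.865 CPM) and *S100a10* (-4.93) were higher in AMs. *Chil3*, *Chil4* and the Ear genes are close copies, so reads may be split between them. Of the subunits of the phagocyte oxidase, *Cybb* (-0.25), *Cyba* (-0.24), *Ncf1* (-0.32) and *Ncf4* (0.74), were not called. Of 10 tetraspanning proteins of the Ms4a and Tmem176 families 6 were higher in KCs, led by *Tmem176b* (627 ± 66.0 CPM against 0.591 ± 0.420 CPM), and 1, *Ms4a8a*, in AMs (-1.62).

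Of 70 lysosomal genes, 14 were higher in KCs, 16 in AMs and 40 were not called. The V-ATPase subunit gene *Atp6v0d2* was at 1730.3, 1647, 1641, 1729 and 1528 CPM in AMs and 0.102 to 1.35 CPM in KCs (log2 fold change -11.24 ± 0.24 (SE), edgeR adjusted p = 3.92e-14). Cathepsin K, *Ctsk*, was at 486, 490.0, 438, 472 and 453 CPM in AMs and 0 to 0.559 CPM in KCs (log2 fold change -10.83 ± 0.27 (SE), edgeR adjusted p = 1.92e-13). Legumain, *Lgmn*, was at 2362 to 2575 CPM (median 2437) in KCs and 164, 169, 167, 149.7 and 192 CPM in AMs (log2 fold change 3.86 ± 0.07 (SE), edgeR adjusted p = 1.13e-14), and cathepsin B, *Ctsb*, at 13421 to 15167 CPM (median 14515) and 2626, 2552, 2605, 2535 and 2583 CPM (log2 fold change 2.49 ± 0.05 (SE), edgeR adjusted p = 3.65e-14). Counted per kilobase of exon, *Ctsb* was at 2388 CPM per kb in KCs and *Ctsd* at 5774 CPM per kb in AMs, where *Ctsb* was at 426 CPM per kb. *Lamp1* and *Psap* were not called (0.49 and -0.60).

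Of 39 ion channel genes, 14 were higher in KCs and 10 in AMs, with different potassium channels on each side. *Kcnj16* had no count in AMs and 102 to 160.1 CPM in KCs (at least 891-fold higher against the limit of 3 counts per sample), and *Kcna2* was at 78.7 to 123 CPM in KCs and 0 to 0.0519 CPM in AMs. *Kcnn3* had no count in KCs and 73.1 to 92.3 CPM in AMs (at least 571-fold higher), and *Kcna3* was at 157, 156, 179, 196 and 222 CPM in AMs and 0 to 0.621 CPM in KCs (log2 fold change -10.02 ± 0.35 (SE), edgeR adjusted p = 7.07e-12). The proton channel gene *Hvcn1* was at 466, 438, 469, 454 and 459 CPM in AMs and 2.31 to 6.37 CPM (median 3.48) in KCs (log2 fold change -6.88 ± 0.19 (SE), edgeR adjusted p = 5.68e-13). Of 57 further G protein-coupled receptors 23 were higher in KCs and 18 in AMs. *Ffar4*, a receptor for long-chain fatty acids, had 115 to 137 CPM in AMs and no count in KCs (at least 882-fold higher), *P2ry2* was higher in AMs (-6.79), and *P2ry12* (214 ± 19.4 CPM against 15.7 ± 1.82 CPM) and *P2ry13* (1.64) were higher in KCs. *Adgre4* (1418 ± 73.8 CPM against 4.03 ± 1.598 CPM) and *Adgre5* (1728 ± 158 CPM against 4.41 ± 1.91 CPM), relatives of F4/80, were higher in KCs.

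Coagulation factors VII and X, *F7* (422, 435, 499, 492 and 559.6 CPM in AMs and 0 to 1.17 CPM in KCs; log2 fold change -9.90 ± 0.35 (SE), edgeR adjusted p = 7.05e-12) and *F10* (-5.63), were higher in AMs, although both are best known as products of the liver. Fibronectin, *Fn1*, was at 844, 602, 671, 1053 and 809 CPM in AMs and 6.21 to 109 CPM (median 14.4) in KCs (log2 fold change -4.22 ± 0.72 (SE), edgeR adjusted p = 1.29e-04), and the urokinase receptor gene *Plaur* was also higher in AMs (-5.68). Of the 52 matrix and protease genes 32 were higher in KCs and 14 in AMs, among the former *Adamdec1* (201 ± 24.1 CPM against 0.0842 ± 0.188 CPM), *Mmp9* (9.15) and *Timp2* (1.53), and collagen IV genes such as *Col4a1* (5.77), which endothelium also makes.

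Most cell cycle genes were not called, 42 of 54, with 9 higher in AMs and 3 in KCs, but KC samples varied in them. *Top2a*, the topoisomerase of dividing cells, was at 64.6, 64.8, 26.9, 7.50, 13.7 and 6.17 CPM in KC replicates 1 to 6 and 47.4, 47.1, 32.8, 26.6 and 36.0 CPM in AMs, and *Mki67*, the proliferation marker Ki-67, at 11.3 to 32.5 CPM in KCs and 23.01 to 26.5 CPM in AMs, neither being called (-0.31 and -0.37). *Top2a* was highest in KC replicates 1 and 2, above all AM samples. Without KC replicates 1, 2 and 3, 30 cell cycle genes were higher in AMs, without KC replicate 2 alone 17, and without KC replicates 5 and 6 there were 5. The D cyclins differed in opposite directions, *Ccnd1* being at 44.3 to 58.2 CPM (median 53.1) in KCs and 2.17, 1.29, 0.796, 0.629 and 0.935 CPM in AMs (log2 fold change 5.49 ± 0.24 (SE), edgeR adjusted p = 8.40e-11) and *Ccnd2* at 258, 274, 268, 269 and 210.4 CPM in AMs and 16.4 to 53.1 CPM (median 29.7) in KCs (log2 fold change -3.00 ± 0.21 (SE), edgeR adjusted p = 1.57e-08). The inhibitor gene *Cdkn1a* was at 395, 419, 469, 563 and 493 CPM in AMs and 10.7 to 25.0 CPM (median 17.5) in KCs (log2 fold change -4.74 ± 0.18 (SE), edgeR adjusted p = 1.26e-11). Of 39 cell death genes 11 (28.2%) were higher in KCs and 7 (17.9%) in AMs. The necroptosis genes *Ripk3* (106 ± 17.6 CPM against 14.3 ± 2.94 CPM; 2.88), *Mlkl* (2.62) and *Zbp1* (2.59) were higher in KCs, of which *Zbp1* and *Mlkl* are interferon-induced, and the survival gene *Bcl2a1d* in AMs (-4.46), a member of a set of close copies.

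In several families, relatives were called in opposite directions, each with at least 10 CPM in the higher group. Of the annexins, which bind membrane phospholipid in the presence of calcium, *Anxa3* was higher in KCs (1.86) and 6 members were higher in AMs, among them *Anxa2* (2431 ± 152 CPM against 70.1 ± 8.25 CPM; -5.11), *Anxa4* (-3.13) and *Anxa5* (-1.27). Of the galectins, which bind galactosides, *Lgals9* was higher in KCs (314 ± 50.3 CPM against 74.4 ± 6.40 CPM; 2.08), and *Lgals1* (379.6 ± 16.2 CPM in AMs against 17.5 ± 7.22 CPM; -4.44) and *Lgals3* (-1.68) were higher in AMs. The long-chain acyl-CoA synthetases were split between *Acsl4*, which favors arachidonate, in KCs (1.24) and *Acsl1* in AMs (-1.72), and the acetyl-CoA synthetases between the cytosolic *Acss2* in KCs and the mitochondrial *Acss1* in AMs (155 ± 16.4 CPM against 10.1 ± 3.48 CPM; -3.94). The mucolipin calcium channel gene *Mcoln3* was at 270.2, 269.8, 261, 275 and 256 CPM in AMs and 0.0451 to 0.813 CPM in KCs (log2 fold change -9.31 ± 0.24 (SE), edgeR adjusted p = 2.63e-13), and *Mcoln1* was higher in AMs by less (-1.32). The MAP kinase phosphatase genes *Dusp1* (-2.77) and *Dusp5* (-8.21) were higher in AMs, with the immediate early genes above, and *Dusp7* (1.57) and *Dusp10* (2.37) in KCs. Among receptors of the SLAM family *Slamf8* was at 70.2 to 95.5 CPM in KCs and 0 to 0.242 CPM in AMs (10.11), and *Slamf9* was higher in AMs (-1.28). No sialyltransferase of the ST3 and ST6 families was called higher in AMs, while *St3gal4* (1.78) and *St6gal1* (2.13) were higher in KCs, as was *St3gal5*, which makes the ganglioside GM3, at 806 to 904 CPM (median 878) in KCs and 0, 0.696, 0, 0 and 0 CPM in AMs (log2 fold change 12.59 ± 0.38 (SE), edgeR adjusted p = 1.33e-12).

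The comparison was repeated in samples it did not use, 6 of Tim4+ KCs and 5 of CD11b- AMs from CRE+ mice, in which *Zeb2* was targeted in KCs by *Clec4f-cre* and in AMs by *Itgax-cre*. There, 12295 genes were tested, 2719 (22.1%) were higher in KCs and 1480 (12%) in AMs. Of the 2543 genes higher in control KCs, 2158 (84.9%, or 79.4% of the 2719) were higher in these KCs too, and of the 1502 higher in control AMs 1137 (75.7%, or 76.8% of the 1480). Called in opposite directions were 8 genes higher in control KCs, among them *Krt8*, *Krt18* and *Mmp12*, and 3 genes higher in control AMs, *Erbb2*, *Vash1* and *Gm21188*, chosen for this after their values were seen. *Krt8* had a log2 fold change of 3.96 in control samples and -4.16 in CRE+ samples. *Arg2*, *BC052688*, *Bmpr1a*, *Fam20c* and *Myo1d* are the remaining genes of the 8. Of these 11 genes, 4 lost their call in control samples when 1 sample was left out: *Krt18* without AM replicate 2, 3, 4 or 5 or KC replicate 1, 3 or 5, *Myo1d* without AM replicate 1, 4 or 5 or KC replicate 1 or 2, *Vash1* without AM replicate 2, 3 or 4 or KC replicate 1 or 2, and *Mmp12* without KC replicate 6. *BC052688* lost it without KC replicates 1, 2 and 3 together and *Erbb2* with all 33 samples in the fit. The repeat shares the tissues and their digestion with the main comparison, so it does not separate those from the cells.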

How the data were processed

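Bulk RNA-seq of sorted macs was measured in 33 samples, of which the 6 CRE- KC and 5 CRE- AM samples were compared. The authors deposited raw read counts per gene, made with HTSeq-count. The submitters' processing notes name FastQC 0.11.4, Trimmomatic 0.35, TopHat2 2.1.0, SAMtools 0.1.18 and the build mm10. The HTSeq-count version, annotation and strand setting are not given in the sources used here, so reads of overlapping and antisense genes could not be told apart. Each file held 24421 genes. Library sizes did not include its 5 tally lines (reads on no gene, 4.89 to 7.10%, and ambiguous reads, 1.19 to 1.39% of the total).

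Counts were tested with edgeR 4.0.16 in R 4.3.3 (quasi-likelihood test, TMM factors, filterByExpr, 2 groups and no covariate), and genes with a Benjamini-Hochberg adjusted p under 0.05 and a fold change above 2 were called. Each SE was worked back from the log2 fold change and the F statistic of the same test, so it adds nothing to the p-value. The tests were checked on simulated counts in which 200 genes were changed. The spread set there was smaller than in these samples and far fewer genes differed, so the check does not cover these data. Alternatives were DESeq2 1.42.0, limma-voom (limma 3.58.1), RLE factors, other filters and cut-offs, all 33 samples, a replicate block and samples left out. Gene lengths came from GENCODE M21 (98.39% of symbols matched) and promoters from RefSeq. Tables and plots were made with Python 3.11.15, pandas 2.3.3, numpy 2.4.6 and matplotlib 3.10.9. Limits of 3 counts per sample cover counting error only.

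Genes were named by a rule: the 15 with the largest fold change in each direction among called genes without overlap and with at least 50 CPM, up to 4 called members per direction with at least 10 CPM and up to 2 of the highest not called per list, the 20 highest in each group, identity, common and sort markers, and relatives called in opposite directions. Of 389 tested genes named, 105 lie outside it and were chosen for a known role after their values were seen. Results of some genes are not reported here. The members and lists were chosen with earlier results of these data known.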

Additional observations from a re-analysis of the deposited data

Results flagged for a closer look

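For the genes given with full statistics and the summed marker lists, the distance of the highest or lowest sample of a group to its nearest neighbour was set against the range of the group. In 8 of 150 gene or list and group pairs 1 sample stood apart, where chance gives about 1 in 20. In KCs these were *Abca1* in replicate 2 (477 CPM, 0.706 of the range), *Cxcl13* in replicate 4 (427 CPM, 0.660) and *Vcam1* in replicate 6 (1075 CPM, 0.757), each the highest of its group. In AMs, *Osm* in replicate 4 (447 CPM, 0.752 of the range) and *Tgfbr1* in replicate 1 (818 CPM, 0.772) were the highest, and *Ccnd2* in replicate 5 (210.4 CPM, 0.758) and *Xdh* in replicate 1 (17.1 CPM, 0.789) the lowest. The summed AM markers were lowest in AM replicate 1 (29263 CPM, 0.818 of the range), against 38294 to 40298 CPM in the other AM samples. In each of the 7 genes the KC and AM samples remained without overlap.

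Of the genes called in opposite directions in control and in CRE+ samples, 2 were without overlap in both. *Arg2*, the mitochondrial arginase, had a log2 fold change of 2.59 in control samples and -1.15 in CRE+ samples, and *Krt8*, a keratin gene, 3.96 and -4.16. *Krt8* was at 1.31 to 5.59 CPM in control KCs and 0 to 0.387 CPM in control AMs, and *Arg2* at 7.23 to 22.1 CPM and 1.72 to 3.53 CPM. The difference between control and CRE+ samples was not tested.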

How the results depend on the processing

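The counts of 2543 genes higher in KCs and 1502 higher in AMs changed most with the fold change cut-off and the filter. Without the cut-off they were 4048 and 3632, and with at least 10 counts required in every sample 1221 and 1007. Under limma-voom, DESeq2, RLE factors, no filter, glmTreat against a fold change of 2, and all 33 samples in the fit they lay between 2056 and 3160, and between 1192 and 1715. Leaving out 1 sample gave 2375 to 2657 and 1483 to 1516, leaving out KC replicates 5 and 6 gave 2421 and 1536, and leaving out KC replicates 1, 2 and 3, chosen after seeing the data, 2423 and 1627. Of the counts within lists, taken by direction, 67 moved by more than 1.5 times with the stricter filter and 73 did not, 49 moved without the fold change cut-off, and 1 to 12 under each other alternative. With the stricter filter, interferon-stimulated genes higher in KCs went from 45 to 29 and GBP and IRG genes from 14 to 9. That filter leaves out each gene with under 10 counts in any sample. Genes near 0 in either group were thus not tested under it, and counts of called genes had to fall. Other examples are nuclear receptors higher in KCs from 9 to 15 without a filter and 14 with all samples, further lineage factors higher in AMs from 5 to 8 under limma-voom, with all samples and without KC replicates 1, 2 and 3, and, without the fold change cut-off, genes higher in AMs from 2 to 34 for oxidative phosphorylation and from 0 to 34 for ribosomal proteins.

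Adding the replicate block to the fit gave 2505 and 1529 genes. Correlations between KC and AM samples of the same number lay between -0.0282 and 0.0658 (mean 0.01, against -0.002 for different numbers). They thus showed no sign of pairing by number. These correlations set different cells from different crosses against each other, so they cannot decide whether the numbers pair the samples. Whether samples of the same number shared a litter or a day of processing was not tested.

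Of the 320 called genes named, 302 kept their call under every alternative that tested them. The other 18, of which 9 lost it when 1 sample was left out and *B2m*, *Cpt1a*, *Elovl5*, *Gpx1* and *Id2* under glmTreat alone, were *Acadm*, *B2m*, *BC052688*, *Bhlhe41*, *Blvra*, *C3*, *Cox7a1*, *Cpt1a*, *Elovl5*, *Erbb2*, *Gpx1*, *Id2*, *Krt18*, *Lpl*, *Mmp12*, *Mpc2*, *Myo1d* and *Vash1*.

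Some genes that were not called and lay near 0 changed sign. Leaving out KC replicates 1, 2 and 3 gave log2 fold changes of 0.0509 for *Axl*, 0.140 for *Ccr2*, 0.0036 for *G6pdx*, 0.0777 for *Ifi27* and 0.0608 for *Lipa*, and leaving out KC replicates 5 and 6 gave 0.112 for *Top2a*. *Gabpa* was at 0.0251 under DESeq2 and RLE factors and at 0.0271 with the stricter filter, and *Stat6* at -0.0027 with all samples and -0.0063 with the block. Leaving out 1 sample gave -0.292 to 0.0529 for *Ccr2*, -0.0656 to 0.194 for *Cfb*, -0.0775 to 0.0761 for *Gabpa*, -0.156 to 0.0207 for *Ifi27*, -0.117 to 0.0095 for *Lipa*, -0.317 to 0.106 for *Slfn4* and -0.0418 to 0.0542 for *Stat6*. The cause was not tested.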
